A study of Rattus norvegicus with 8 samples.

Results

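Eugenol was compared with DMSO in rat heart muscle cells kept in normoxia, and the genes described are the 207 that the authors listed for this comparison, of 9025 genes listed in any of the 5 deposited tables. A gene entered the authors' table when its unadjusted p was under 0.05. Of the 207 genes, 119 were higher and 88 were lower with eugenol. The cells were primary ventricular cardiomyocytes from neonatal Sprague Dawley rats 2 to 3 days old, isolated from heart ventricles, so a culture can also hold non-muscle cells of the heart. The normoxia eugenol group received 10 µM eugenol for 24 h, and the normoxia DMSO group received the solvent for 24 h. The groups ischemia eugenol and ischemia DMSO had the same additions for 24 h under 1% oxygen and 5% carbon dioxide and are used where the same genes have counts there. Each of the 4 groups has 2 libraries, 8 in all. Whether both libraries of a group trace back to separate cell isolations is not stated in the labels, and the p-values therefore measure only the spread between these libraries, which may be technical.

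Eugenol is the main phenol of clove oil. Phenols of this kind can take up radicals directly, and some also raise enzymes of detoxification through the transcription factor NRF2, which leaves its inhibitor KEAP1 when reactive compounds modify that protein and then binds antioxidant response elements in promoters. Glutathione transferases join glutathione to reactive molecules, and the quinone reductase NQO1 is a widely used readout of NRF2. In neonatal ventricular cells the alpha and beta myosin heavy chains, encoded by Myh6 and Myh7, drive contraction, and a shift towards the beta chain accompanies growth and stress of rodent heart muscle. The question of the comparison, as the series states it, is which genes eugenol changes in cardiomyocytes.

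The read totals behind the deposited FPKM values were 15.5 and 14.7 megareads in normoxia eugenol and 16.5 and 16.1 megareads in normoxia DMSO. They were 16.0 and 16.7 megareads in ischemia eugenol and 17.7 and 15.9 megareads in ischemia DMSO. Levels are given as RPM, the reads of a gene per megaread of this total. Over the 6084 genes whose normoxia mean was 5 RPM or more, the smallest median absolute log2 difference between 2 normoxia libraries, 0.0805, was that of eugenol 1 and DMSO 2, against 0.0927 within the eugenol pair and 0.13 within the DMSO pair. The libraries of a group differed by more than sampling noise, with a chi-square per degree of freedom of 6.85 for normoxia eugenol and 14.5 for normoxia DMSO. Of 12 cardiomyocyte markers 10 were in the fit with no library at 0, and their summed level was 60727 and 60371 RPM in the eugenol libraries and 60294 and 61154 RPM in the DMSO libraries.

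Few genes passed an adjusted p of 0.05. In the authors' deposited table they numbered 26, or 0.181% of the 14362 genes that the authors adjusted, with 11 higher (0.0766%) and 15 lower (0.104%) under eugenol. The whole list was 1.39% of those genes, counting the 200 that entered the adjustment. An edgeR quasi-likelihood refit of the deposited counts over 6924 genes called 14 genes, or 0.202%, of which 5 were higher (0.0722%) and 9 lower (0.13%). All 14 were among the 26 of the authors, and 0 genes outside the list were called. The list was itself chosen by p from these same counts, so this overlap is not independent support. In this refit 333 genes, 4.81%, had an unadjusted p under 0.05, and DESeq2's Wald test called 25. The genes fitted are only those the authors listed for some comparison, so shares over them do not stand for all expressed genes. Without DMSO 1 the refit called 43 genes and without DMSO 2 it called 119, and all 14 were among both. Without eugenol 1 it called 11 and without eugenol 2 it called 10, and each time 5 of the 14 were among them. Gstm5, LOC100911034 and AABR07024068.1 were called under each of these omissions.

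The list held both large changes of scarce transcripts and small changes of abundant ones. In 81 genes, 35 higher and 46 lower, the change in the authors' deposited table was at least 1 on the log2 scale. These had a median absolute change of 2.89, and their higher group mean had a median of 4.82 RPM and never passed 42.1 RPM. In 26 of them, or 32.1%, the libraries of one group differed by more than 4 times, against 0.419% of all genes fitted. The other 126 genes, 84 higher and 42 lower, had a median absolute change of 0.29 on the log2 scale at a median of 109 RPM, and 0 of them had libraries of a group more than 4 times apart.

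**Figure D1:**
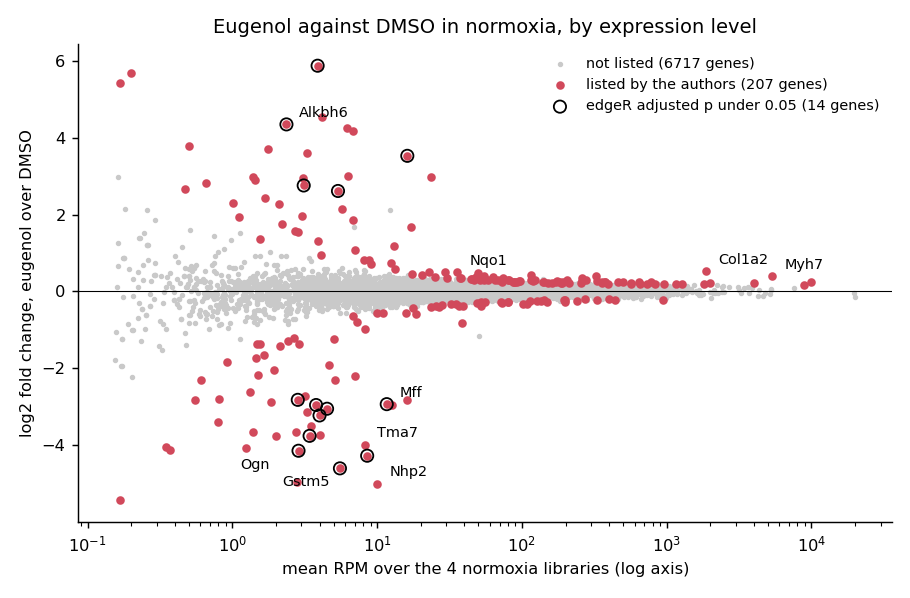
Log2 fold change of eugenol over DMSO in normoxia from the edgeR refit (vertical axis) against the mean RPM of the 4 normoxia libraries (log axis), with listed genes in red, other genes in grey and the 14 genes past an adjusted p of 0.05 ringed. The large changes sit among scarce transcripts, and the abundant listed genes such as Myh7 and Col1a2 lie within 1 log2 unit of no change.

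The largest fall among genes called by both methods was that of Gstm5, a glutathione transferase of the mu class (ENSRNOG00000049743, chr2:210685197-210688272, plus strand, protein coding, in the coordinates of the deposited tables, which name no genome build). It had 9 and 4 reads in the eugenol libraries, 0.582 and 0.272 RPM, against 179 and 168 reads in the DMSO libraries, 10.8 and 10.4 RPM. Both eugenol libraries were far below both DMSO libraries. The edgeR log2 fold change was -4.60 ± 0.34 (SE, n = 2 per group) with an adjusted p of 0.00227, and the authors' deposited table gave -4.63 with an adjusted p of 5.88e-15. The deposited ischemia values of Gstm5 were not analysed here, because no table used lists it with them.

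Nqo1, the NRF2-driven quinone reductase, is listed in the other direction. It had 47.1 and 36.4 RPM in the eugenol libraries and 30.2 and 28.5 RPM in the DMSO libraries, so the groups did not overlap. The authors' deposited table gave a log2 fold change of 0.50 with an unadjusted p of 0.00366 and an adjusted p of 1.00, and the edgeR refit gave 0.51 ± 0.13 (SE) with an adjusted p of 0.694. Neither passed the threshold. In ischemia Nqo1 had 96.3 and 119 RPM with eugenol and 90.9 and 92.1 RPM with DMSO.

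The upstream sequences of these 2 genes are shown because both genes serve electrophile metabolism and are listed in opposite directions. They are the 250 bases before the annotated start in RefSeq, build GRCr8, read 5′ to 3′ on the gene's strand. Capitals mark matches to the core of the antioxidant response element, TGACNNNGC, and to the TATA box letters TATAAA, both searched on both strands, with no overlap between the 2 motifs in these sequences.
Gstm5, chr2:198219519-198219768, plus strand: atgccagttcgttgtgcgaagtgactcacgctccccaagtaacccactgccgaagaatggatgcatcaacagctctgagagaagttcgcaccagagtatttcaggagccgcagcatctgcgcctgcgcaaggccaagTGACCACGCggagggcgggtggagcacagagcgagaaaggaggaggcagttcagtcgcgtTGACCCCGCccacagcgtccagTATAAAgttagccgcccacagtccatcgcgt
Nqo1, chr19:52220268-52220517, minus strand: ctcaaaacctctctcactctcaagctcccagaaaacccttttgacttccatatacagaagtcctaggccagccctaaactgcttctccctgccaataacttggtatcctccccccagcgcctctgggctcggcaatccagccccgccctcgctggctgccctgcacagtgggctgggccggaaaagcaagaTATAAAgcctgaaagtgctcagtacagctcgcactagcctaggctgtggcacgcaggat

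The Gstm5 sequence held the response element core at -113 to -105 and at -53 to -45, counted from the annotated start, and the TATA box letters at -31 to -26. The Nqo1 sequence held no core in this window and the TATA box letters at -59 to -54. Of the 207 listed genes 119 had an upstream sequence, 113 matched by symbol and 6 by an older symbol. The core was found in 5 of 66 genes listed higher (7.58%), in 7 of 53 listed lower (13.2%) and in 10.2% of all 27457 upstream sequences. The TATA box letters were found in 8 of 66 listed higher (12.1%), in 10 of 53 listed lower (18.9%) and in 13.1% of all.

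No NRF2 target passed the test. Of 24 genes on the list 20 were fitted, 18 had a positive and 2 a negative fold change, and 0 passed the edgeR test. Their median log2 fold change was 0.09, against 0.01 over all genes fitted, with libraries that did not overlap in 6 genes upwards and in 1 downwards. All genes fitted had non-overlapping libraries upwards in 19.1% and downwards in 15.2%. Their fold change was positive in 52.9%, the share to set beside the counts of every list. Hmox1, haem oxygenase, had 51.3 and 70.0 RPM with eugenol and 64.6 and 44.7 RPM with DMSO, and the groups overlapped. Gclm, the regulatory subunit of the enzyme that starts glutathione synthesis, had 37.4 and 37.9 RPM with eugenol and 39.3 and 37.8 RPM with DMSO. Txnrd1, thioredoxin reductase, had 153 and 159 RPM with eugenol and 142 and 143 RPM with DMSO, a log2 difference of 0.13 ± 0.08 (SE) with an edgeR adjusted p of 0.963. Srxn1, sulfiredoxin, had 3.36 and 4.56 RPM with eugenol and 3.63 and 2.80 RPM with DMSO. Of 7 fitted genes of the aryl hydrocarbon receptor and xenobiotic list, 6 were positive and 0 were called, and Cyp1b1, a cytochrome P450 of that pathway, had 118 and 120 RPM with eugenol and 119 and 94.8 RPM with DMSO.

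The other 8 genes that fell in the edgeR refit are LOC100911034, Mff, Ogn, Rbm12, Tmco3, Wbp1, MGC94199 and AC117925.6. LOC100911034, annotated in the files as a mitochondrial cysteine desulfurase-like gene, had 7 and 18 reads in the eugenol libraries and 265 and 264 in the DMSO libraries. In ischemia eugenol it had 141 and 165 reads, with no counts available for ischemia DMSO. In normoxia it fell by 4.27 on the log2 scale (SE 0.34, edgeR adjusted p 0.00257). A cysteine desulfurase supplies sulfur for iron-sulfur clusters, and because the name marks a gene like another one, reads could be divided between near-identical copies. Mff, the receptor that brings the fission protein DRP1 to the mitochondrial surface, had 2.33 and 3.06 RPM with eugenol and 12.6 and 28.5 RPM with DMSO. The DMSO libraries thus differed between themselves but both stayed above the eugenol libraries. In ischemia eugenol Mff had 27.0 and 12.5 RPM, near the levels of normoxia DMSO, with no counts available for ischemia DMSO. In normoxia Mff fell by 2.93 on the log2 scale (SE 0.39, edgeR adjusted p 0.0321). Without eugenol 1 the adjusted p of Mff was 0.262 and without eugenol 2 it was 0.167.

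Ogn, which encodes osteoglycin, a small leucine-rich proteoglycan of the matrix, had 2 and 7 reads with eugenol and 95 and 82 reads with DMSO. The ratio of summed reads, scaled to the totals, was 0.055 (95% exact interval for counting error 0.0248 to 0.107), and the edgeR adjusted p was 0.0169. In ischemia Ogn had 2 and 1 reads with eugenol and 3 and 1 reads with DMSO, so the DMSO libraries of normoxia were the ones with more than a few reads. Without eugenol 1 the adjusted p of Ogn was 0.0629. Rbm12, an RNA-binding protein, showed the same arrangement of libraries. It had 11 and 10 reads in normoxia eugenol, 87 and 75 in normoxia DMSO, 11 and 13 in ischemia eugenol and 9 and 11 in ischemia DMSO. Rbm12 fell by 2.82 in normoxia (log2, SE 0.32, edgeR adjusted p 0.017), and its log2 fold change in ischemia was 0.30 ± 0.56 (SE). In normoxia its edgeR adjusted p was 0.129 without eugenol 1 and 0.142 without eugenol 2.

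Tmco3, a transmembrane protein, had 8 and 15 reads with eugenol and 95 and 140 with DMSO in normoxia, and 11 and 100 with eugenol and 10 and 9 with DMSO in ischemia. A single ischemia eugenol library therefore carried it at the level of normoxia DMSO. Wbp1, whose product binds WW domains, had 18 and 8 reads with eugenol and 110 and 109 with DMSO in normoxia. Its ischemia eugenol libraries had 66 and 141 reads. MGC94199 (ENSRNOG00000026672), for which the files give no function, had 8 and 6 reads with eugenol and 120 and 88 with DMSO. A second listed gene of that symbol (ENSRNOG00000049287) had 43 and 11 reads with eugenol and 10 and 5 with DMSO, and reads could be divided between near-identical copies. AC117925.6 had 11 and 18 reads with eugenol and 153 and 110 with DMSO in normoxia, and 603 and 71 in ischemia eugenol. The edgeR adjusted p was 0.0186 for Tmco3, 0.0186 for Wbp1, 0.0082 for the first MGC94199 gene and 0.0169 for AC117925.6. Leaving out eugenol 2 ended the call of each of these 4, with adjusted p from 0.0514 for AC117925.6 to 0.106 for Wbp1.

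Alkbh6, an AlkB-like member of the family of iron-dependent dioxygenases that includes demethylases of nucleic acids, rose with eugenol. It had 91 and 46 reads in the eugenol libraries and 3 and 4 reads in the DMSO libraries, with both eugenol libraries far above. The ratio of summed reads was 21.2 (95% exact interval for counting error 10.0 to 53.7), and the edgeR log2 fold change was 4.35 ± 0.51 (SE, adjusted p 0.0186). Without eugenol 1 the adjusted p was 0.108. AABR07024068.1, a protein-coding model on an unplaced contig with no name in the files, had 115 and 115 reads with eugenol and 3 and 1 with DMSO. The ratio was 62.2 (95% exact interval for counting error 24.0 to 230). In ischemia eugenol it had 2 and 2 reads, with no counts available for ischemia DMSO.

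LOC100910717, annotated as tankyrase-2-like, had 140 and 138 reads with eugenol and 29 and 20 with DMSO. It rose by 2.61 on the log2 scale (SE 0.27, edgeR adjusted p 0.0117). In ischemia it had 89 and 384 reads with eugenol and 357 and 35 with DMSO, so each ischemia group held a high and a low library. LOC100911615, annotated as like the patatin-like phospholipase PNPLA2, the triglyceride lipase of fat stores, had 95 and 69 reads with eugenol and 16 and 10 with DMSO, and rose by 2.76 (log2, SE 0.35, edgeR adjusted p 0.0228). An assembled transcript with no gene name (2713 bases, chr9:20203743-20212953, plus strand, as deposited) had 326 and 564 reads with eugenol and 64 and 20 with DMSO, and its edgeR adjusted p was 0.0186, or 0.115 without eugenol 2. The calls of LOC100910717 and LOC100911615 were lost without either eugenol library, with adjusted p from 0.0607 to 0.2.

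**Figure D2:**
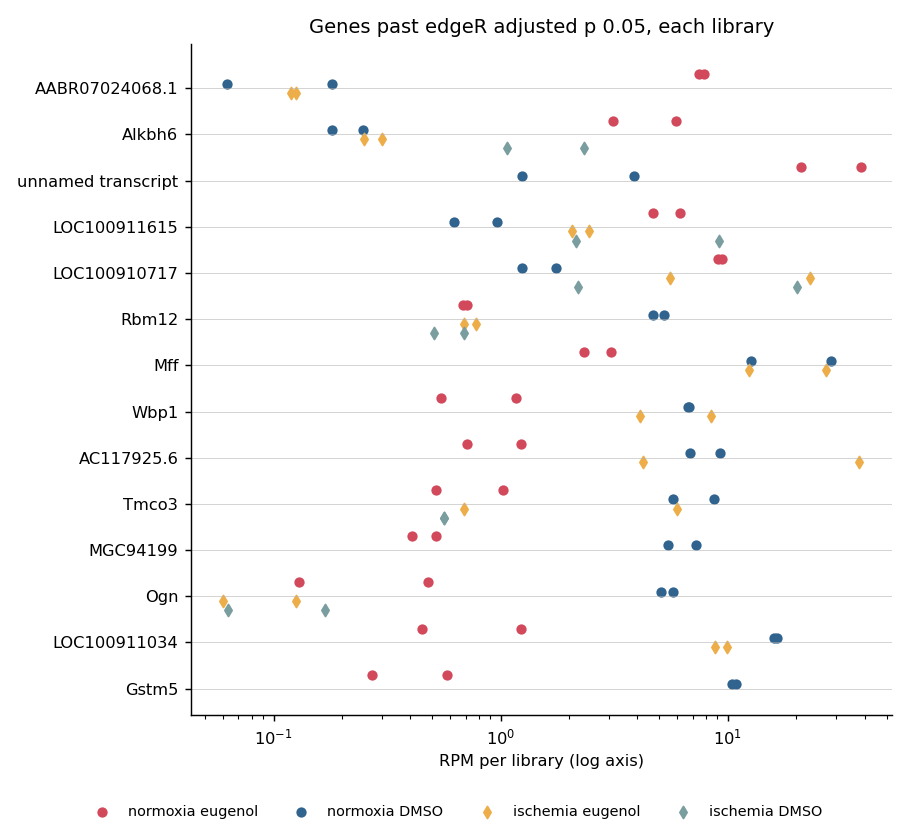
RPM per library (log axis) of the 14 genes past an edgeR adjusted p of 0.05 in normoxia, from the largest rise at the top to the largest fall at the bottom. Circles are normoxia libraries and diamonds ischemia libraries. The eugenol and DMSO libraries of normoxia do not overlap in any of the 14 genes, which were chosen by p from these same libraries. Over all genes fitted the libraries did not overlap in 19.1% upwards and in 15.2% downwards. Genes such as Tmco3 and LOC100910717 spread widely within the ischemia eugenol group.

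A further 12 genes passed in the authors' deposited table and not in the edgeR refit. Brd2, a bromodomain protein that reads acetylated histones, had 2.59 and 2.38 RPM with eugenol and 6.04 and 17.0 RPM with DMSO. The authors' deposited table gave a log2 fold change of -2.22 with an adjusted p of 0.000384, against an edgeR adjusted p of 0.399. Wdr77, a subunit of the PRMT5 methyltransferase complex, had 10 and 2 reads with eugenol and 58 and 108 with DMSO, and LOC100911994, annotated as a coiled-coil protein, had 1 and 7 reads with eugenol and 68 and 53 with DMSO. Tspan4, a tetraspanin, had 22 and 30 reads with eugenol and 224 and 57 with DMSO. Ppp2ca, the catalytic subunit of protein phosphatase 2A, was the most abundant of the lower genes of this group, with 32.1 and 23.6 RPM with eugenol and 40.2 and 57.7 RPM with DMSO. In these 5 genes the DMSO libraries were all higher.

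Of the genes higher with eugenol in this group, Rtkn, which encodes rhotekin, had 101 and 65 reads with eugenol and 6 and 17 with DMSO. Tsen34, a subunit of the tRNA splicing endonuclease, had 117 and 204 reads with eugenol and 51 and 46 with DMSO. The authors' deposited table gave log2 fold changes of 2.95 for Rtkn and 1.85 for Tsen34, with adjusted p of 0.000227 and 0.000687, against edgeR adjusted p of 0.0812 and 0.12. The libraries did not overlap in any of these genes, which were chosen by p from these same libraries. Over all genes fitted they did not overlap in 19.1% upwards and in 15.2% downwards. DESeq2's Wald test on the same counts called Brd2, Wdr77, LOC100911994, Rtkn and Tsen34, and also Col1a2, described below.

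The abundant genes of the authors' calls were Myh7 and Col1a2. Myh7, the beta myosin heavy chain (ENSRNOG00000016983, chr15:33634422-33656089, minus strand, as deposited), had 5958 and 6183 RPM in the eugenol libraries and 4155 and 5034 RPM in the DMSO libraries. The eugenol libraries were both higher, though the DMSO libraries lay farther from each other than the eugenol libraries did. The authors' deposited table gave a log2 fold change of 0.40 with an adjusted p of 0.0498, and the edgeR refit gave 0.40 ± 0.10 (SE) with an adjusted p of 0.691. In the edgeR refit Myh7 passed without DMSO 2, with 0.55 and an adjusted p of 0.00914, and missed the threshold with all 4 libraries.

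Myh6, the alpha chain, had 9916 and 11609 RPM with eugenol and 8806 and 9255 RPM with DMSO, and Actn2, the alpha-actinin of the Z disc, had 2086 and 2167 RPM with eugenol and 1701 and 1974 RPM with DMSO. Neither overlapped between the groups, and the authors' deposited table gave both an adjusted p of 1.00. Per length, Myh6 stood above Myh7 in both groups, with mean FPKM of 1785 for Myh6 and 1025 for Myh7 in eugenol and of 1498 for Myh6 and 776 for Myh7 in DMSO. The 2 genes are close relatives in sequence, and how the authors placed reads that match both is not given in the sources used here. Of 24 sarcomere genes 21 were fitted, 13 with a positive and 8 with a negative fold change and 0 called by edgeR, with a median of 0.08. Natriuretic peptides, released by stressed heart muscle, did not pass. Nppa had 19947 and 18462 RPM with eugenol and 21338 and 20737 RPM with DMSO, and Nppb had 1808 and 1499 RPM with eugenol and 1561 and 1989 RPM with DMSO.

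Col1a2, a chain of type I collagen (chr4:31534225-31569151, plus strand, as deposited), had 1928 and 2455 RPM in the eugenol libraries and 1658 and 1392 RPM in the DMSO libraries. The authors' deposited table gave a log2 fold change of 0.52 with an adjusted p of 0.0146, and the edgeR refit gave 0.52 ± 0.13 (SE) with an adjusted p of 0.673. DESeq2's Wald test on the same counts gave Col1a2 0.51 with an adjusted p of 0.0125. Col1a1, the other chain, had 9306 and 9532 RPM with eugenol and 8016 and 8618 RPM with DMSO, a smaller difference of 0.18 ± 0.08 (SE, edgeR adjusted p 0.963). Of 13 fitted extracellular matrix genes 9 were positive and 0 were called by edgeR, with a median of 0.12. Fibroblast markers were also higher in sum. Of 15 markers 11 were fitted, with 7 positive, 4 negative and none at 0, and their summed level was 17905 and 18822 RPM with eugenol and 16113 and 16460 RPM with DMSO. Without both collagens the sum of the other 9 was 6672 and 6835 RPM with eugenol and 6438 and 6449 RPM with DMSO. Their part in the collagen difference was not tested. Because a culture can also hold non-muscle cells, more cells of a type and more RNA per cell cannot be told apart. Ddr2, a collagen receptor on fibroblasts, had 106 and 105 RPM with eugenol and 86.4 and 90.0 RPM with DMSO.

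**Figure D3:**
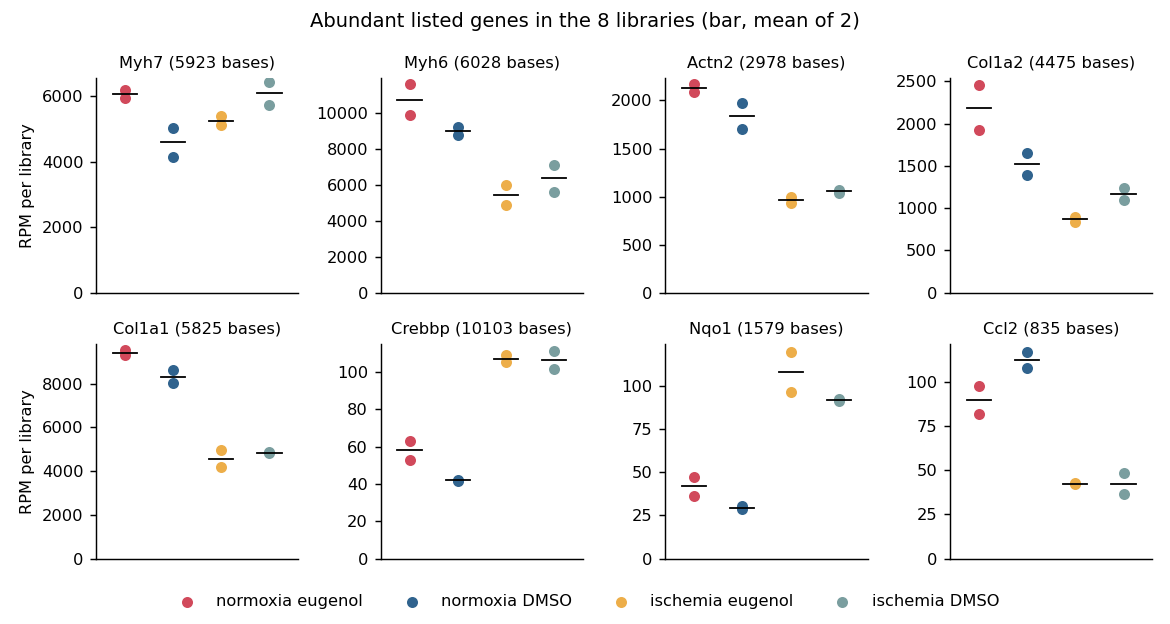
RPM in each of the 8 libraries (vertical axes, starting at 0) of 8 listed genes, with the groups from left to right normoxia eugenol, normoxia DMSO, ischemia eugenol and ischemia DMSO, and a bar at the mean of 2 libraries. Ccl2 is lower with eugenol in normoxia and the other panels are higher, and in ischemia the means of both myosins, Actn2 and both collagens are lower with eugenol.

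Of 14 fitted acetylation enzymes and readers 2 were listed, Brd2 lower, as above, and Crebbp higher. Crebbp, the acetyltransferase CBP, had 52.8 and 63.2 RPM with eugenol and 41.6 and 42.2 RPM with DMSO, a log2 difference of 0.47 ± 0.11 (SE, edgeR adjusted p 0.576), while its relative Ep300, which is not listed, had 23.5 and 23.6 RPM with eugenol and 20.3 and 24.2 RPM with DMSO. The T-type calcium channel genes Cacna1g and Cacna1h were listed higher. Cacna1g had 388 and 424 RPM with eugenol and 321 and 365 RPM with DMSO, and Cacna1h had 178 and 216 RPM with eugenol and 172 and 161 RPM with DMSO. Of 16 fitted genes of calcium handling and ion channels 12 were positive and 0 were called by edgeR. Bag3, a co-chaperone of the Z disc, had 170 and 175 RPM with eugenol and 149 and 149 RPM with DMSO.

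Of 15 fitted immediate-early genes Egr1 and Junb were listed, and of 12 fitted inflammation genes Ccl2 was, each lower with eugenol and none past an adjusted p of 0.05 in either source. Ccl2, the chemokine that draws monocytes, had 97.9 and 81.8 RPM with eugenol and 117 and 108 RPM with DMSO, a log2 difference of -0.32 ± 0.10 (SE, edgeR adjusted p 0.933). Junb, an AP-1 subunit, had 103 and 104 RPM with eugenol and 125 and 120 RPM with DMSO, and Egr1, an early growth response factor, had 113 and 79.9 RPM with eugenol and 112 and 131 RPM with DMSO, where the groups overlapped. Of 12 fitted inflammation genes 9 were negative with a median of -0.18, and of 15 immediate-early genes 11 were negative with a median of -0.09, with 0 called by edgeR in either list. Macrophage and leukocyte markers lay lower too. Of 14 markers 9 were fitted, with 7 negative and none at 0, and their summed level was 96.7 and 93.4 RPM with eugenol and 110 and 101 RPM with DMSO. Their part in the inflammation values was not tested. Ifi27, an interferon-inducible gene, had 75.6 and 68.5 RPM with eugenol and 93.9 and 80.8 RPM with DMSO.

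Metabolic lists had no edgeR call. Of 19 fitted genes of oxidative phosphorylation 17 were negative, with a median of -0.09. Over all genes fitted 52.9% were positive, and among genes of 5 RPM or more those under 1000 bases had a median of -0.09 too. The part of gene length in the lists was not tested. Of 16 glycolysis genes 10 were positive with a median of 0.00, and of 19 cholesterol synthesis genes 14 were positive with a median of 0.05. Of the fitted genes, positive fold changes numbered 12 of 23 HIF targets (median 0.01), 3 of 13 other antioxidants (-0.03), 5 of 15 genes of fatty acid oxidation (-0.02), 13 of 21 cell cycle genes (0.01) and 12 of 15 clock genes (0.12). The medians of the glycolysis and HIF lists turned slightly negative under TMM scaling.

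In the lists of stress and signalling, positive fold changes numbered 13 of 17 genes of integrated and ER stress (median 0.04), 4 of 6 heat shock genes (0.02), 5 of 10 autophagy genes (-0.01), 2 of 8 apoptosis genes (-0.02), 4 of 6 interferon genes (0.11) and 3 of 4 TRP channels (0.17), the family that holds receptors for clove compounds. The cardiac stress list had 6 of 12 (-0.02) and the acetylation list 9 of 14 (0.08). Among markers of other cells, 5 of 8 of smooth muscle and pericytes (0.03), 3 of 4 of endothelium (0.14), 3 of 6 of epicardium (-0.03), 0 of 2 of glia and neurons (-0.35) and 0 of 1 of erythroid cells (-0.49) were positive. Endothelial markers summed to 245 and 230 RPM with eugenol and 202 and 225 RPM with DMSO, and erythroid markers to 1.10 and 0.953 RPM with eugenol and 0.906 and 1.99 RPM with DMSO. Over the 31 lists 348 of 531 symbols were fitted, 18 listed genes stand on a list, and 0 list genes passed the edgeR test in normoxia.

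The direction of the small changes went with gene length. Among the 126 listed genes under 1 log2 unit, the 84 higher ones had a median deposited length of 5262 bases, with 52 at 4000 or more, and the 42 lower ones a median of 1216 bases, with 34 under 2000 and 1 at 4000 or more. All genes fitted had a median of 2530 bases. The same order ran through all genes averaging 5 RPM or more. Their median log2 fold change was -0.09 for 490 genes under 1000 bases, -0.04 for 1602 genes from 1000 to 2000, 0.02 for 2447 genes from 2000 to 4000, 0.06 for 989 genes from 4000 to 6000 and 0.10 for 556 genes of 6000 or more. The share of genes with a positive value was 21.4% in the shortest class and 82.7% in the longest. Each of the 4 pairings of a eugenol with a DMSO library had this slope, from -0.14 to -0.04 in the shortest class and from 0.07 to 0.12 in the longest. Libraries of one group also differed with length, in the normoxia pairs from 0.03 in the shortest to -0.03 in the longest class for eugenol 1 over eugenol 2 and from 0.05 to -0.03 for DMSO 1 over DMSO 2. That is near the size of the slope of eugenol 1 over DMSO 2, which went from -0.04 to 0.07. In ischemia DMSO 1 over DMSO 2 had 0.05 in the shortest and -0.04 in the longest class. In ischemia the medians of the 5 classes were -0.01, -0.01, -0.02, -0.01 and 0.02.

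Long genes listed higher, named here after their values were seen, included laminins of the basement membrane and linkers of the cytoskeleton. Plec, plectin, of 17402 bases, had 351 and 385 RPM with eugenol and 254 and 300 RPM with DMSO, and its log2 difference of 0.41 ± 0.10 (SE, edgeR adjusted p 0.623) lay above the 0.10 of its length class. Flnc, filamin C, had 683 and 709 RPM with eugenol and 538 and 636 RPM with DMSO. The laminin genes Lama5, Lamb2, Lamb3 and Lamc1 were all listed higher, and Lama5 had 360 and 415 RPM with eugenol and 314 and 337 RPM with DMSO. Among short genes listed lower, Ppia, cyclophilin A, of 779 bases, had 884 and 845 RPM with eugenol and 1050 and 980 RPM with DMSO. The calcium-binding S100a4 had 438 and 378 RPM with eugenol and 470 and 479 RPM with DMSO, and the ribosomal protein gene Rps14 had 372 and 370 RPM with eugenol and 456 and 400 RPM with DMSO. For Myh7 the log2 difference of 0.40 and for Col1a2 that of 0.52 stood beside a median of 0.06 in their length class of 4000 to 6000 bases, and Nqo1 with 0.51 beside -0.04 in the class of 1000 to 2000. Ccl2 with -0.32 stood beside -0.09. The part of gene length in these differences, and in the directions of the gene lists, was not tested.

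**Figure D4:**
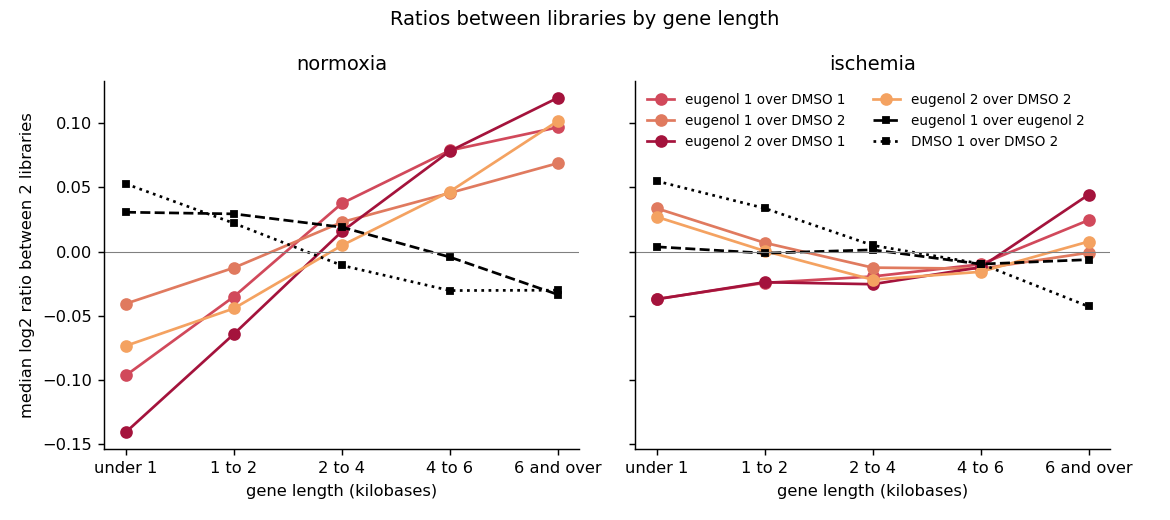
Median log2 ratio between 2 libraries (vertical axis) in 5 classes of deposited gene length in kilobases (horizontal axis), for genes averaging 5 RPM or more, in normoxia (left) and ischemia (right). Coloured lines pair a eugenol with a DMSO library and black lines pair libraries of one group. All 4 coloured lines climb in normoxia, to between 0.07 and 0.12 in the longest class, and those in ischemia stay within 0.05 of no difference.

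Several of the largest fold changes came from 1 library. Nhp2, a small nucleolar RNA protein of the telomerase complex, had 11 and 7 reads with eugenol and 630 and 7 with DMSO, so DMSO 1 alone was high. Tma7, a translation-associated protein, had 6 and 23 reads with eugenol and 477 and 31 with DMSO. Mrpl53, a mitochondrial ribosomal protein, had 10 and 368 reads with eugenol and 14 and 9 with DMSO, and Ndufa1, a complex I subunit, had 173 and 13 reads with eugenol and 6 and 10 with DMSO. Atp5f1, a subunit of ATP synthase, had 1165 and 129 reads with eugenol and 104 and 72 with DMSO. None of these 5 passed an adjusted p of 0.05 in the authors' deposited table or in the edgeR refit. The same on and off pattern appeared in ischemia libraries, where Nhp2 had 362 and 7 reads with eugenol and 8 and 12 with DMSO. LOC100911186 had 16 and 331 reads with eugenol and 12 and 8 with DMSO in normoxia, and 356 and 17 with eugenol and 12 and 5 with DMSO in ischemia.

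Some large changes lay side by side on the chromosome. In 11 pairs of listed genes the gene models overlapped or lay under 10000 bases apart, and in 5 of these pairs the directions were opposite. Some of the pairs held small changes, such as Myh7 with Myh6. The same count over all genes fitted was not made, so no excess can be read from it. Rtkn, higher with eugenol, and AC117925.6, lower, are 113 bases apart on opposite strands. Wdr77, lower, and Atp5f1, higher, are 145 bases apart on opposite strands. Tmco3, lower, and Dcun1d2, a cullin neddylation factor with 3 and 70 reads with eugenol and 6 and 4 with DMSO, are 9615 bases apart. Wbp1, lower, and Mrpl53, higher, are 9195 bases apart. AC115371.1 overlaps Myh6 on the opposite strand and was listed higher as Myh6 was, with 217 and 252 reads with eugenol and 107 and 199 with DMSO. Whether counting used the strand is not given in the sources used here, so reads of such partners cannot be told apart.

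The ischemia libraries give the same measure in samples that did not choose the 207 genes, but they helped choose which of these have ischemia counts. A gene has counts in an ischemia group only where a comparison using that group lists it at an unadjusted p under 0.05. The shares below are therefore a description and not an independent check. Of the 207 genes 115 were fitted there, 57 had counts in 1 ischemia group and 31 in neither, and 4 had counts in both groups but too few reads. Of 72 genes listed higher in normoxia 38 were positive and 34 negative in ischemia, and of 43 listed lower 16 were negative and 27 positive. The median log2 fold change in ischemia was 0.02 for both sets, against -0.01 over all genes fitted there. The shares with the same sign were 52.8% of the higher and 37.2% of the lower set. Over all 6582 genes with counts in the 8 libraries they were 50.0% of those positive in normoxia and 57.4% of those negative.

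In ischemia 3 of the 115 genes passed the edgeR test, against 0.294% of all genes fitted there (5.18% had an unadjusted p under 0.05). Each had the direction of its normoxia listing. All 3 are also listed by the authors for eugenol in ischemia, and such listings helped choose the 115, so the 2 shares are not an independent comparison. Echs1, a hydratase of mitochondrial fatty acid oxidation, had 26.5 and 21.0 RPM in ischemia eugenol and 0.676 and 0.690 RPM in ischemia DMSO, a log2 fold change of 5.10 ± 0.24 (SE, adjusted p 7.84e-07). In normoxia only eugenol 1 was high, with 91 and 14 reads with eugenol and 20 and 13 with DMSO. Lemd2, a protein of the inner nuclear membrane, had 15.4 and 14.3 RPM in ischemia eugenol and 7.78 and 6.59 RPM in ischemia DMSO (adjusted p 0.0332), and 5.82 and 13.3 RPM with eugenol and 5.14 and 3.85 RPM with DMSO in normoxia. LOC100911994 had 19 and 7 reads in ischemia eugenol and 72 and 86 in ischemia DMSO (adjusted p 0.0313), beside its 1 and 7 reads with eugenol and 68 and 53 with DMSO in normoxia. Both conditions had it lower with eugenol, with all 4 eugenol libraries below all 4 DMSO libraries.

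The authors' normoxia calls that could be fitted in ischemia did not keep their direction as a group. They could be fitted only because comparisons with ischemia libraries list them too, so they are a selected part of the calls. Of the 11 called higher 7 were fitted in ischemia, and 1 was positive and 6 were negative there, with a median of -1.31. Of the 15 called lower 6 were fitted, 4 positive and 2 negative. Col1a2 had 835 and 898 RPM in ischemia eugenol and 1233 and 1092 RPM in ischemia DMSO, a log2 fold change of -0.42 ± 0.09 (SE, edgeR adjusted p 0.0988). The authors' deposited table gave -0.41 with an adjusted p of 0.00268, so in the authors' tables Col1a2 passed in both conditions in opposite directions. Myh7 had 5388 and 5116 RPM in ischemia eugenol and 5748 and 6434 RPM in ischemia DMSO, a log2 fold change of -0.21 ± 0.08 (SE, edgeR adjusted p 0.675). The authors' tables for eugenol in normoxia and in ischemia share 27 genes, 13.0% of the 207 and 10% of the 270, with 14 in the same direction and 13 in opposite directions.

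The difference between the eugenol effects was itself tested over the 6582 genes with counts in all 8 libraries. It passed for 1 gene, 0.0152%, with edgeR, and 236 genes, 3.59%, had an unadjusted p under 0.05, while DESeq2's Wald test called 5. The gene was Alkbh6, with 91 and 46 reads with eugenol and 3 and 4 with DMSO in normoxia, and 4 and 5 with eugenol and 19 and 37 with DMSO in ischemia. The effect in normoxia exceeded that in ischemia by 6.92 on the log2 scale (SE 0.82, edgeR adjusted p 0.0122). For Col1a2 the difference was 0.95 ± 0.17 (SE, edgeR adjusted p 0.143) and for Myh7 0.62 ± 0.14 (SE, edgeR adjusted p 0.343). For these and the other named genes it did not pass, which does not show that the effects were equal.

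**Figure D5:**
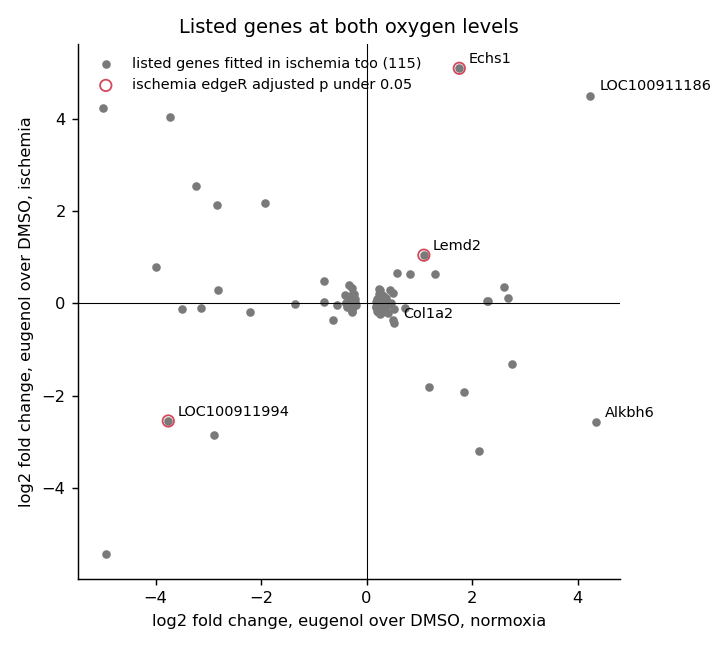
Log2 fold change of eugenol over DMSO in normoxia (horizontal axis) and in ischemia (vertical axis) for the 115 listed genes fitted in both, from edgeR. Each point is a gene, the 3 ringed genes pass an adjusted p of 0.05 in ischemia, and the points fill all 4 quadrants.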

How the data were processed

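Libraries were made from total RNA with a TruSeq kit and run on a HiSeq 2000, according to the labels. Read counts per gene were deposited by the authors. The tools listed in the submitters' processing notes, without their roles, are StringTie 1.3.3b, HISAT2, DESeq2 and edgeR. The authors also deposited a normalized signal, which is the count divided by a size factor. From the deposited FPKM values and the counts the total of each library was recovered. The log2 fold changes, p-values and adjusted p-values were deposited by the authors, with 1 for genes left out of the adjustment. Each table holds only genes with an unadjusted p under 0.05, so the genes fitted are those that some table lists. Genome build, counting tool and strand setting are not given in the sources used here.

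Counts of the 6998 genes with values in the 4 normoxia libraries were joined from the 5 tables, with 0 counts differing between tables. Genes with at least 10 reads in all (6924) were fitted with edgeR 4.0.16 quasi-likelihood on the totals, without normalization factors, and adjusted by Benjamini-Hochberg. The same fit over the 4 ischemia libraries held 7138 genes, and the test of the difference used all 8 libraries. With 2 libraries a group, the smallest two-sided p of an exact permutation test is 0.333. Intervals on reads are exact binomial and cover counting error only. Tested on simulated data for normoxia with 6911 genes, the fit found 62.9% of genes changed 1.5 times, 92.8% of those changed 2 times and 100% of those changed 4 times. It made 11 false calls there and 1 where no gene differed. The changed genes were drawn only from those with a mean of at least 5 RPM. The recovered shares were not split further by expression level or by spread within a group. They therefore do not give the recovery for scarce genes or for genes whose libraries of one group differed widely.

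The genes and the 31 gene lists were chosen with earlier results of these data known, so lists are described by counts and medians without a test. The lists are those given in the text, plus HIF targets, other antioxidants, TRP channels, fatty acid oxidation, cell cycle, integrated and ER stress, heat shock, autophagy, apoptosis, interferon, the circadian clock, and markers of smooth muscle, endothelium, erythroid cells, glia and epicardium. Named genes were those the authors or edgeR called (up to 20 each), the 12 largest rises and 12 largest falls among listed genes with a symbol, no overlap and at least 5 RPM, listed genes on a list, and 11 always shown, of which a selection is printed. Others were named after their values were seen. Alternatives were TMM, DESeq2 and the authors' size factors, minimums of reads and RPM, DESeq2 1.42.0, all libraries in one model, the replicate number as a block and leaving out each library. R 4.3.3, limma 3.58.1, Python 3.11.15, pandas 2.3.3, NumPy 2.4.6 and matplotlib 3.10.9 were used. A listed gene is not reported here.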

Additional observations from a re-analysis of the deposited data

Results flagged for a closer look

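Alkbh6 was the gene whose eugenol effect differed between normoxia and ischemia by a direct test of that difference over all 8 libraries, at 6.92 on the log2 scale (edgeR adjusted p 0.0122). Its reads were 91 and 46 with eugenol and 3 and 4 with DMSO in normoxia, and 4 and 5 with eugenol and 19 and 37 with DMSO in ischemia. The call was absent in the fits without ischemia eugenol replicate 2 and without ischemia DMSO replicate 2, and the gene was below the minimum of 5 RPM. A model of Clip3, a microtubule-linked protein, lies 240 bases from Alkbh6 on the same strand. It had 28 and 32 reads in ischemia eugenol and 545 and 280 in ischemia DMSO, and 11 and 20 in normoxia DMSO, and its part in the Alkbh6 values was not tested.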

How the results depend on the processing

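For normoxia, 14 genes were called under TMM, DESeq2 and the authors' size factors and with no minimum of reads. There were 4 called at a mean of at least 5 RPM, 25 with DESeq2's Wald test and 3 with all 8 libraries in one model. Leaving out each library gave 10 to 119, with the lone library assumed to vary like the others. For ischemia the 21 calls became 13 at 5 RPM, 38 with the replicate number as a block, 1 in the 8-library model and 35 to 333 without a library. The difference between conditions, 1 call, became 0 at 5 RPM, 5 with DESeq2, 2 with the replicate block and 0 to 9 without a library. With the replicate number as a block normoxia had 65 calls, and with a crossed block, chosen after seeing the data, it had 62. Between the 2 normoxia groups, deviations of same-numbered libraries correlated at -0.235. Whether any libraries share a batch, by number or crosswise, was not tested. Of the 207 listed genes 81 had a fold change of at least 1 on the log2 scale. Uncalled genes turned sign when 1 library was left out, with log2 values from -0.884 to 1.13 for Cyp1a1, -0.0828 to 2.53 for Echs1, -0.0367 to 0.216 for Ep300, -0.0930 to 0.438 for Hmox1, -0.266 to 0.0830 for Nppb and -0.116 to 0.0766 for Txnip. The cause of these shifts was not tested. Most large changes lie in genes with under 10 RPM, and the part of read depth in them was not tested.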
